A study of Rattus norvegicus with 3 samples.

Results

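The genes described here carry newly made proteins from the endoplasmic reticulum (ER) to the Golgi and bring escaped ER proteins back. They were chosen by gene symbol from the families of the signal recognition particle, the Sec61 translocon, the COPII and COPI coats, cargo and KDEL receptors, Arf GTPases and their regulators, the TRAPP and COG tethers, and the golgins. The symbol rule found 101 of the 16516 genes in the authors' deposited table. RNA was sequenced from 3 cell populations dissected from the enamel organ of 5 Wistar Hannover rats, with no treatment or genetic change named. Cervical loop cells come from the growing end of the tooth and include the dividing progenitors, secretory ameloblasts lay down the enamel matrix, and maturation ameloblasts later remove the matrix and mineralise the enamel. No age or sex of the rats is named in the labels. Each stage is represented by 1 mean per gene, called the authors' mean, whose unit is not stated, so levels are compared between stages for a gene and not between genes. Differences were called at a false discovery rate (FDR) under 0.05 in the authors' deposited table, with the direction taken from the means. No standard deviation could be computed from 1 mean per stage.

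Proteins bound for secretion are recognised by the signal recognition particle while still being made and are threaded through the Sec61 channel into the ER. Vesicles coated with COPII leave the ER at exit sites with their cargo, and COPI vesicles return ER residents, which KDEL receptors catch by a tail sequence. Ameloblasts of the secretory stage are tall polarised cells with a large rough ER and Golgi, and their main products, amelogenin, ameloblastin and enamelin, all take this route.

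Promoters are shown first because those of many members hold the same short sequence. The letters ACGTG are the core common to many sites of bZIP transcription factors, a class that includes factors of the ER stress response such as Xbp1, Atf6 and the Creb3 family. The core also lies within the E-box CACGTG and overlaps the CCACG end of the ER stress element. RefSeq promoters of build GRCr8, from 250 bases before to 50 bases after the start site, were found by symbol for 88 of the 101 members, all but Cog1, Golga4, Golga7, Gorasp2, Kdelr2, Sec24c, Sec24d, Sec61a1, Sec61a2, Surf4, Trappc4, Trappc9 and Trappc10. The promoter of Kdelr3 (chr7:112959382-112959681, plus strand), the KDEL receptor with the largest drop, holds 3 cores, which are in capitals:
Kdelr3: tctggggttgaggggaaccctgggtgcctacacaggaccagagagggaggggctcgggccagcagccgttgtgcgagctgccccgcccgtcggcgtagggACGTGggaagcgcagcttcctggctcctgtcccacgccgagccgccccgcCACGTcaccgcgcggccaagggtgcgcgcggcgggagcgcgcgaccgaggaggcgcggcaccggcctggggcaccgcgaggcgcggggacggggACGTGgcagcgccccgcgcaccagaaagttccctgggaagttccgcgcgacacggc

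Shorter windows around the core are given for 1 or more members of each role that fell from the secretory to the maturation stage, each read 5′ to 3′ on the gene's own strand. Capitals mark the core, read as ACGTG or, on the other strand, CACGT. They are Ssr4 (chrX:156675657-156675681, plus strand), Ssr1 (chr17:27039155-27039180, plus), Sec31a (chr14:9518672-9518696, plus), Sec23a (chr6:82440979-82441003, minus), Copa (chr13:87078890-87078914, plus), Gbf1 (chr1:254960008-254960032, plus), Golga3 (chr12:52160254-52160279, minus) and Tmed9 (chr17:9039336-9039360, minus).
Ssr4: gggaaacggaCACGTcagtgccgcc
Ssr1: ccccgccggcCACGTGaccgcgcgga
Sec31a: ctgcggctgcCACGTtggagcggag
Sec23a: ctcccatttgACGTGgcagaggcgg
Copa: ggggtagctgACGTGgagcctttgg
Gbf1: ggctagttacCACGTcagtgagctg
Golga3: agggcgtggcCACGTGgatcatcata
Tmed9: ccgcaggtctACGTGgctcggcagt
In Ssr1 and Golga3 the core is part of the palindrome CACGTG.

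On either strand, the core was present in 41 of the 88 member promoters (46.6%), against 25.1% of the 11020 genes of the authors' table with a promoter and 19.3% of all 33469 promoters of that length. The split of members by their call in secretory against cervical loop cells was planned. Splits by the other pairs of stages were added beyond that plan. Among members that were lower in maturation than in secretory ameloblasts, 31 of 50 held the core (62%), against 29.2% of all genes called that way. It was in 1 of the 8 members that were higher in maturation (12.5%, against 23% of all such genes) and in 9 of the 30 that did not pass (30%, against 24.4%). Of the members higher in secretory ameloblasts than in the cervical loop, 25 of 45 held the core (55.6%, against 28.9% of all genes called that way). Of members lower in that pair, 1 of 4 held it (25%, against 25.3% of all such genes). Of members that did not pass in that pair, 15 of 39 held it (38.5%, against 23.8% of all such genes). Of those lower in maturation than in the cervical loop, 18 of 25 held it (72%, against 26.2% of all such genes), and of those higher there, 6 of 18 (33.3%, against 24.2%). Of members that did not pass there, 17 of 45 held it (37.8%, against 24.8%). Member promoters held a median of 21.5 CpG pairs against 20 over all genes of the table, and 61% against 60.3% G and C. The balance differed between subsets. Members lower in maturation than in the cervical loop had medians of 25 CpG pairs and 62.7%, against 20 and 60% for all such genes. For members lower in maturation than in secretory ameloblasts they were 21 and 59.8%, against 22 and 62%. The full ER stress element, CCAAT, 9 bases, then CCACG, was in none of the 88 and in 22 of all 33469 promoters (0.0657%). These matches describe letters in a window and do not show that a factor binds there.

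Sar1b, the GTPase that starts COPII assembly, and Sec24a, a cargo-binding COPII subunit, both had their highest means in maturation ameloblasts and lie head to head. Their promoter windows overlap over 161 bases (chr10:36525254-36525414, GRCr8), shown on the plus strand, and the core is absent from both whole windows:
Sar1b and Sec24a: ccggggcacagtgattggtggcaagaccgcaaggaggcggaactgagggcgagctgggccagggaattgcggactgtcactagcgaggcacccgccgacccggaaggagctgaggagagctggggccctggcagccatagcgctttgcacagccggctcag

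The labelled stages were checked against marker genes. Summed means of 4 enamel matrix genes were 2920 in the cervical loop, 112877 in the secretory and 5621 in the maturation stage, and those of 5 maturation genes were 83.8, 554 and 5570. The 5 cervical loop genes summed to 603, 582 and 1727, so this sum was highest in maturation and goes against its label. It was carried there by the keratin gene Krt14, at 295, 542 and 1691, while Sox2, Lgr5, Sfrp5 and the proliferation gene Mki67 were lower in both later stages than in the cervical loop, Mki67 at 289, 38.8 and 35.3. Other cell types were present in the dissected tissue. Means of 10 mesenchyme genes summed to 10230, 10828 and 14715, led by the collagen gene Col1a1, and of 7 odontoblast and bone genes to 481, 245 and 336. The 8 myeloid genes summed to 234, 199 and 686 and 7 of them were higher in maturation than in either other stage. The 5 endothelial genes measured summed to 105, 136 and 208, and the 5 muscle genes to 1.13, 5.73 and 128. Of the muscle genes only Tnni1 was called, higher in maturation than in either other stage. Acta1, Myh4, Mb and Ckm passed in no pair. Of 3 plasma cell genes measured, the sum was carried by Sdc1, and the defining gene Jchain was at 0.486, 0.443 and 0.438. In these bulk samples, fewer cells of a type and less RNA per cell cannot be told apart. The share of these other cells in the differences below was not tested.

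Most members had their highest mean in secretory ameloblasts: 68 of 101 (67.3%), against 22.3% of all genes. Another 20 members peaked in maturation ameloblasts and 13 in the cervical loop. From the cervical loop to the secretory stage, 54 members were higher and 4 lower, where 16.5% of all genes were called higher and 25.2% lower. From the secretory to the maturation stage, 57 members were lower and 9 higher, against 21.1% and 21.8% of all genes. These comparisons share the secretory libraries, so the rise and the fall are not independent. Maturation against the cervical loop gave 22 members higher and 29 lower, against 24.1% and 33.7% of all genes, shares of members that lie near those of all genes. Over the 3 stages together, 78 of the 101 members passed at the same threshold in the authors' deposited table. So did 11099 of all 16516 genes, so passing was common in the table as a whole.

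The sizes of the changes were moderate for most members. In secretory ameloblasts the 54 higher members had a median fold of 1.47, from 1.12 to 3.92. The 57 members lower in maturation had a median fold of 1.57, from 1.07 to 4.80. The members' median log2 ratio was 0.32 in secretory against cervical loop cells, where the median of all genes was -0.14. It was -0.34 in maturation against secretory ameloblasts (all genes 0.00) and -0.03 in maturation against the cervical loop (all genes -0.12). Relative to the median of all genes, the last of these became 0.093.

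**Figure D1:**
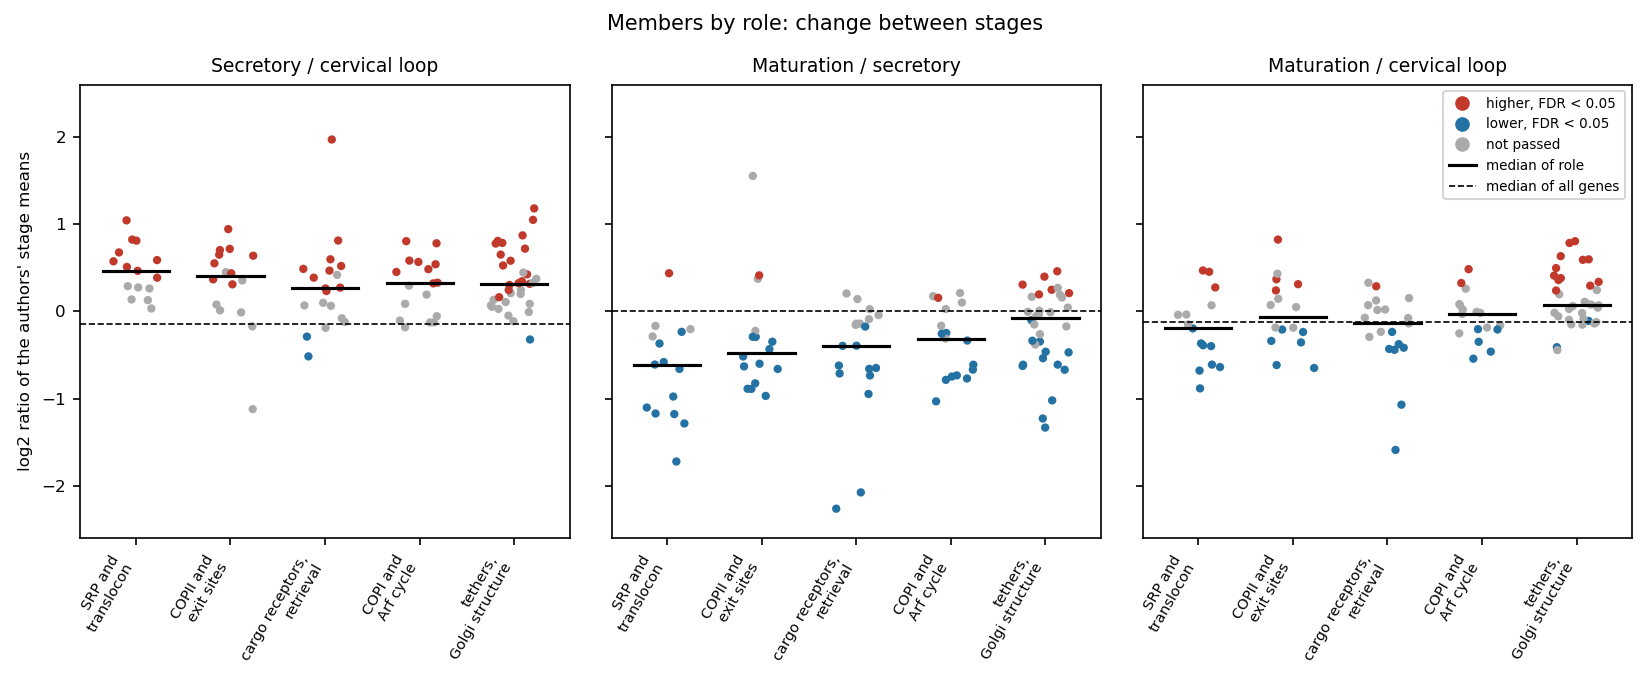
Log2 ratio of the authors' stage means for each member, in columns by role, for the 3 pairs of stages. Each point is a gene, coloured by its call at an FDR under 0.05, solid bars are medians of a role and the dashed line is the median of all genes (-0.14, 0.00 and -0.12); Golga7b, with a mean near 0 outside the cervical loop, is not drawn. Most coloured points lie above the dashed line in the first panel (54 higher, 4 lower) and below it in the second (57 lower, 9 higher).

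In the role of entry into the ER, 14 of the 15 members had their highest mean in secretory ameloblasts. Of the 15, 9 rose (60%, against 16.5% of all genes) and none fell (against 25.2%) from the cervical loop to the secretory stage. From there to maturation 11 fell (73.3%, against 21.1%) and 1 rose (6.67%, against 21.8%). All 6 members of the channel group (Sec61a1, Sec61a2, Sec61b, Sec61g, Sec62 and Sec63) rose in secretory and fell in maturation ameloblasts. Sec61a1, the pore-forming subunit, had means of 149, 261 and 115 in cervical loop, secretory and maturation cells. It was thus 1.75-fold higher in secretory than in cervical loop cells (FDR = 0.00264 in the authors' deposited table) and 2.26-fold lower in maturation (FDR = 0.000611). Its paralogue Sec61a2 followed the same order at means of 14.9, 19.4 and 13, with a 1.5-fold drop to maturation (FDR = 0.000872 in the authors' deposited table). The small subunit Sec61b had means of 26.5, 42.3 and 17.4, a 2.44-fold drop to maturation (FDR = 0.000755 in the authors' deposited table). Sec61g, the other small subunit, was at 19.2, 28.8 and 14.7.

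Against the cervical loop the channel and its partners split. In maturation the 4 Sec61 subunits were all lower than in the cervical loop, whereas Sec62 and Sec63, which help proteins enter the channel after or during synthesis, were higher. Sec63 had means of 52.6, 93.0 and 72.0 and was 1.37-fold higher in maturation than in the cervical loop (FDR = 0.00296 in the authors' deposited table). Sec62 had means of 38.0, 54.0 and 45.9, 1.21-fold higher in that comparison (FDR = 0.0121 in the authors' deposited table). Secretory ameloblasts held the highest mean for both.

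The 4 translocon-associated (TRAP) subunits, which sit beside Sec61 and help certain signal sequences insert, were lower in maturation than in both other stages. Ssr4 had means of 33.8, 69.6 and 21.1, a 2.06-fold rise to the secretory stage (FDR = 0.00342 in the authors' deposited table) followed by a 3.30-fold drop (FDR = 0.00056). Ssr2 was at 88.9, 109 and 48.2, and its rise missed the threshold (FDR = 0.0508 in the authors' deposited table) while its drop was 2.25-fold (FDR = 0.000374). Ssr1 was at 95.2, 131 and 61.1, a 2.15-fold drop to maturation (FDR = 0.00105 in the authors' deposited table). For Ssr3 the means were 133, 160 and 101, with a 1.58-fold drop (FDR = 0.00532 in the authors' deposited table) after a rise that did not pass. Maturation ameloblasts had the lowest mean of all 4 subunits.

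Of the 5 measured proteins of the signal recognition particle itself, only Srp68 passed from the cervical loop to the secretory stage, with means of 39.0, 58.1 and 38.0 and a 1.49-fold rise (FDR = 0.000805 in the authors' deposited table). Srp14, which takes part in the pause of translation, peaked in maturation, at 16.3, 16.6 and 22.5, 1.35-fold above secretory cells (FDR = 0.0286 in the authors' deposited table). Srp9, the partner of Srp14, was at 12.9, 14.1 and 12.6 and passed in no pair of stages. Srp19 and Srp54a passed in none either.

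For export from the ER, 9 of 16 COPII members were higher in the secretory stage than in the cervical loop (56.25%, against 16.5% of all genes). None were lower (against 25.2%). In maturation 12 of 16 were lower (75%, against 21.1%) and 1 higher (6.25%, against 21.8%) than in the secretory stage. The 6 organisers of exit sites all peaked in secretory ameloblasts and all fell in maturation. Mia2, which helps load large cargo such as procollagen and lipoproteins, had means of 15.5, 29.8 and 19.3. Its rise was 1.92-fold (FDR = 0.000986 in the authors' deposited table) and its later drop 1.55-fold (FDR = 0.00243). The scaffold Sec16a was at 95.6, 150 and 98.8, with a 1.57-fold rise (FDR = 0.0112 in the authors' deposited table) and a 1.52-fold drop (FDR = 0.00994). Its paralogue Sec16b was at 7.24, 9.26 and 4.73, and of its 2 steps only the 1.96-fold drop passed (FDR = 0.00985 in the authors' deposited table). The others were Sec23ip, Tfg and Preb, the exchange factor that loads Sar1 with GTP.

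Paralogues of the COPII coat did not share a course. Sec23a, an inner coat subunit, had means of 49.8, 50.2 and 31.8, with no call between the first 2 stages, and was 1.58-fold lower in maturation than in the secretory stage (FDR = 0.000885 in the authors' deposited table). Sec23b was at 32.2, 52.8 and 41.5, 1.64-fold higher in the secretory stage (FDR = 0.00314 in the authors' deposited table) and 1.29-fold higher in maturation than in the cervical loop (FDR = 0.0170). So in maturation against the cervical loop Sec23a was lower and Sec23b higher. The difference between the paralogues was not itself tested.

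The 4 Sec24 subunits, which select cargo, took 3 courses. Sec24d had means of 47.2, 76.8 and 41.5, with a 1.63-fold rise (FDR = 0.00129 in the authors' deposited table) and a 1.85-fold drop (FDR = 0.000457). Sec24c likewise peaked in secretory cells, at 58.1, 72.0 and 50.3. Sec24a had its lowest mean there, at 29.8, 26.4 and 35.1, and rose 1.33-fold to maturation (FDR = 0.00685 in the authors' deposited table). Sec24b was at 29.1, 28.8 and 24.7 and was called lower in maturation only against the cervical loop (FDR = 0.0470 in the authors' deposited table).

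Sar1b had means of 15, 20.5 and 26.6, highest in maturation, where it was 1.77-fold above the cervical loop (FDR = 0.00669 in the authors' deposited table) while neither single step passed. In the outer coat, Sec31a was at 90.1, 132 and 71.2, with a 1.46-fold rise (FDR = 0.00112 in the authors' deposited table) and a 1.85-fold drop (FDR = 0.00023). Sec13, its partner, was at 37.5, 39.5 and 29.2, lower in maturation than in both other stages. Sec31b was the 1 member with no mean of at least 1, at 0.258, 0.118 and 0.347, and passed nowhere.

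**Figure D2:**
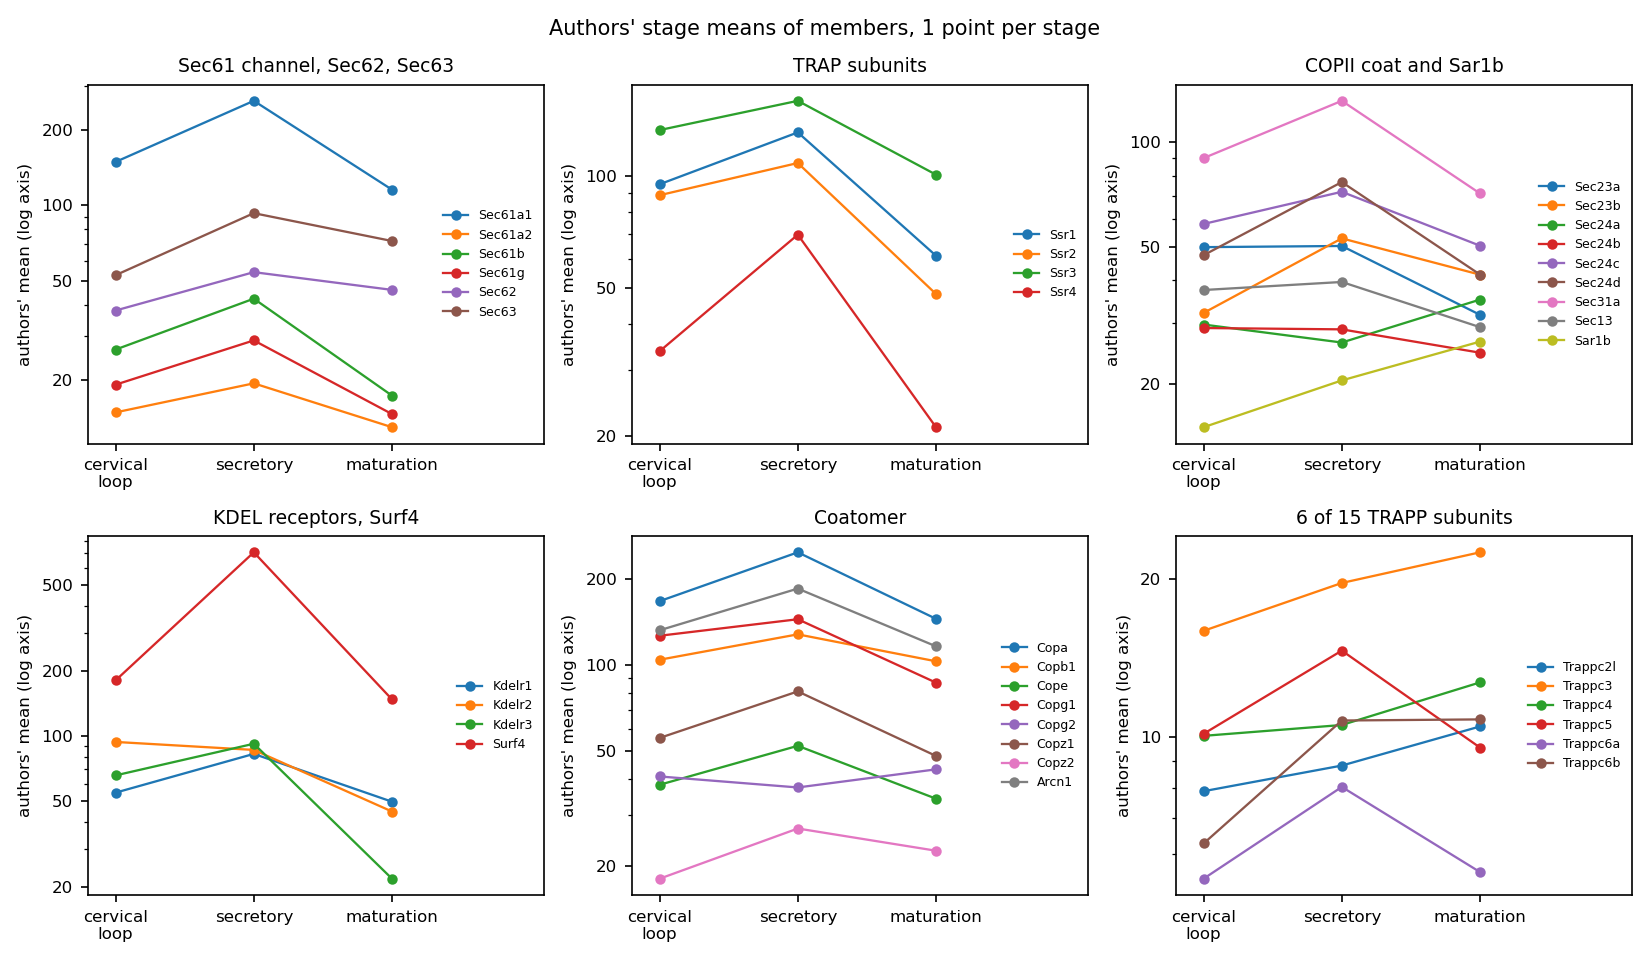
Authors' stage means of members of 6 families, on a log axis with a separate scale in each panel; each point is the single mean of a stage and lines join the points of a gene. Surf4 rises from 181 to 708 and returns to 148, the 4 TRAP subunits are lowest in maturation, and Sar1b and Sec24a end highest in maturation.

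Among cargo receptors and retrieval factors, Surf4 changed more than any other member with a mean of at least 1 in all stages, both from the cervical loop to secretory and from secretory to maturation. Surf4 is a receptor for soluble secreted proteins in the ER. Its means were 181, 708 and 148, so it stood 3.92-fold higher in secretory than in cervical loop cells (FDR = 0.00119 in the authors' deposited table) and 4.80-fold lower in maturation (FDR = 0.000615). Its maturation and cervical loop means did not differ at the threshold (FDR = 0.381 in the authors' deposited table).

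KDEL receptors return ER residents from the Golgi, and all 3 were lower in maturation than in the secretory stage. Kdelr3 had means of 65.6, 92.0 and 21.8, a 1.40-fold rise (FDR = 0.0196 in the authors' deposited table) and then a 4.22-fold drop (FDR = 0.000278). It was 3.01-fold lower in maturation than in the cervical loop (FDR = 0.000371 in the authors' deposited table). Kdelr2 had means of 93.7, 86.1 and 44.6, with no call between the first 2 stages, and was 1.93-fold lower in maturation than in secretory cells (FDR = 0.00192 in the authors' deposited table). Kdelr1 was at 54.6, 82.5 and 49.6, higher in the secretory stage than in both others, with no call between maturation and cervical loop (FDR = 0.180 in the authors' deposited table). Maturation ameloblasts thus had the lowest mean of each receptor.

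The Ergic proteins, which cycle between the ER and the early Golgi, differed in direction. Ergic3 had means of 34.8, 61.1 and 38.7, a 1.75-fold rise (FDR = 0.000623 in the authors' deposited table) and a 1.58-fold drop (FDR = 0.00067). Ergic1 was highest in the cervical loop, at 29.5, 24.2 and 21.9, and was 1.22-fold lower in the secretory stage (FDR = 0.0402 in the authors' deposited table). Ergic2 was at 24.4, 25.5 and 24.8 and passed in no pair. Of the lectins that carry glycoproteins, Lman1 was at 39.8, 46.7 and 29.8, lower in maturation than in both other stages, Lman2 was lower only against secretory cells, and Lman2l passed nowhere.

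The p24 proteins, encoded by Tmed genes, line COPI and COPII vesicles and sort lipid-anchored cargo. From the cervical loop to the secretory stage 5 of 9 Tmed genes were higher (55.6%, against 16.5% of all genes). Only Tmed8, counted here by its symbol, was lower (11.1%, against 25.2%). In maturation 4 were lower (44.4%, against 21.1%) and none higher (against 21.8%) than in the secretory stage. Tmed9 had means of 50.8, 61.4 and 37.4 and was 1.64-fold lower in maturation than in secretory cells (FDR = 0.000597 in the authors' deposited table). Tmed2, at 126, 164 and 107, and Tmed10, at 82.7, 114 and 86.9, also peaked in secretory ameloblasts. Tmed3 had that order too, whereas Tmed4 was at 17.3, 20.8 and 21.1 and higher in both later stages than in the cervical loop. Tmed8, at 2.68, 1.88 and 2.07, was lower in both later stages. Tmed1, Tmed5 and Tmed7 passed in no pair.

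In the COPI coat, 5 of 8 coatomer genes were higher in secretory cells than in the cervical loop (62.5%, against 16.5% of all genes). In maturation 6 of 8 were lower than in secretory cells (75%, against 21.1%). None went in the opposite direction, against 25.2% and 21.8% of all genes. Copa had means of 167, 247 and 145, a 1.48-fold rise (FDR = 0.000609 in the authors' deposited table) and a 1.71-fold drop (FDR = 0.000214). Copz1 was at 55.7, 81.0 and 48.2 and Arcn1 at 132, 185 and 116, in the same order. Cope, at 38.3, 52.3 and 34.2, also rose and fell, and Copb1, at 104, 128 and 103, passed in no pair.

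Of the paralogous coatomer subunits, Copg1 was at 127, 145 and 86.9, 1.66-fold lower in maturation than in secretory cells (FDR = 0.000792 in the authors' deposited table). Copg2 was at 40.9, 37.4 and 43.3 and passed in no pair. Copz2 was at 18.0, 26.9 and 22.5, a 1.5-fold rise (FDR = 0.00181 in the authors' deposited table), and it was still 1.25-fold higher in maturation than in the cervical loop (FDR = 0.00783), where Copz1 was lower.

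The Arf cycle, which recruits COPI, was uneven. Gbf1, the exchange factor that activates Arf at the early Golgi, had means of 75.8, 132 and 76.8, a 1.75-fold rise (FDR = 0.00155 in the authors' deposited table) and a 1.72-fold drop (FDR = 0.00127). Arfgap1, which ends the Arf cycle, was at 20.4, 35 and 17.1, with a 2.05-fold drop (FDR = 0.0023 in the authors' deposited table). Arfgap3 instead rose at each step, at 21.3, 26.8 and 29.8, and was 1.40-fold higher in maturation than in the cervical loop (FDR = 0.000507 in the authors' deposited table). Arfgap2 passed in no pair.

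Of the 5 Arf GTPases themselves, Arf1, Arf2 and Arf4 were called in at least 1 pair of stages. Arf1 had means of 91.4, 114 and 96.0 and was the only 1 of 5 that passed from cervical loop to secretory cells, with a 1.25-fold rise (FDR = 0.00341 in the authors' deposited table). Arf4 was at 123, 113 and 89.5 and Arf2 at 18.1, 16 and 14.2, both highest in the cervical loop and lower in maturation. Arf5, at 45.4, 48.1 and 54.3, and Arf6, at 28.5, 26.5 and 28.4, passed in no pair. Arf6 acts mainly at the plasma membrane and is a member by its symbol.

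Tethers and Golgi structure held 34 members, of which 19 had their highest mean in secretory cells (55.9%, against 22.3% of all genes) and 11 in maturation (32.4%, near the 33.4% of all genes). From the cervical loop to the secretory stage 17 were higher (50%, against 16.5% of all genes) and 2 lower (5.88%, against 25.2%). From there to maturation 13 were lower (38.2%, against 21.1% of all genes) and 6 higher (17.6%, against 21.8%). Against the cervical loop 12 were higher (35.3%, against 24.1%) and 3 lower in maturation (8.82%, against 33.7%). The golgins are coiled-coil proteins that capture vesicles. Among called members of this role, Golga3 rose most to the secretory stage and fell most from there to maturation. Golga3 had means of 16.8, 38.1 and 15.1, a 2.27-fold rise (FDR = 0.000687 in the authors' deposited table) and a 2.52-fold drop (FDR = 0.000336). Golgb1, or giantin, was at 129, 222 and 94.7, with a 2.34-fold drop (FDR = 0.0021 in the authors' deposited table). Golga2, or GM130, was at 20.7, 37.8 and 24.5, and its 1.83-fold rise had FDR = 0.00133 in the authors' deposited table. Secretory cells had the highest mean of all 3.

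Other golgins did not follow them. Golga4 was at 43.0, 53.5 and 55.1, higher in both later stages than in the cervical loop, and Golga1, at 19.7, 20.4 and 14.8, was lower in maturation than in both. Golga5 passed in no pair. The stacking proteins Gorasp1, at 11.6, 15.6 and 17.5, and Gorasp2, at 42.5, 66.6 and 41.9, were both higher in the secretory stage than in the cervical loop, but only Gorasp2 was called lower in maturation than in secretory cells. Uso1, the p115 tether, was at 59.9, 98.5 and 77.9, with the highest mean in secretory cells and a 1.3-fold higher mean in maturation than in the cervical loop (FDR = 0.0149 in the authors' deposited table).

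Golga7 and Golga7b, accessory subunits of protein palmitoyltransferases that the symbol rule includes, went opposite ways. Golga7 had means of 42.1, 53.4 and 73.4, rose at each step, and was 1.75-fold higher in maturation than in the cervical loop (FDR = 0.000616 in the authors' deposited table). Golga7b was at 8.29, 0.0476 and 0.117, at most a trace outside the cervical loop, with FDR = 0.000512 for secretory against cervical loop in the authors' deposited table and no fold, since the secretory mean lies under 0.1. In maturation it was 70.6-fold lower than in the cervical loop (FDR = 0.000232 in the authors' deposited table). On the log2 scale that ratio of -6.14 became -3.06 once 1 was added to each mean.

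The COG complex tethers vesicles moving back within the Golgi. Of its 8 subunits, 3 were higher (37.5%, against 16.5% of all genes) and none lower (against 25.2%) in secretory than in cervical loop cells. In maturation 5 were lower (62.5%, against 21.1%) and none higher (against 21.8%) than in secretory cells. Cog6 had means of 24.3, 50.2 and 24.7, a 2.07-fold rise (FDR = 0.00114 in the authors' deposited table) and a 2.03-fold drop (FDR = 0.00094). Cog4 was at 33.6, 58.7 and 38.4, in the same order. Cog8 rose, Cog3 and Cog7 fell in maturation, and Cog1 and Cog5 passed in no pair. Cog2, at 20.5, 20.4 and 19.0, was called lower in maturation than in the cervical loop at a log2 ratio of -0.11, which turned to 0.01 relative to the median of all genes.

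The TRAPP complex activates Rab1 and tethers COPII vesicles. Its 8 calls in maturation against the cervical loop were all higher, of 15 subunits (53.3%, against 24.1% of all genes). Trappc6b had means of 6.28, 10.7 and 10.8, a 1.71-fold rise to the secretory stage (FDR = 0.000979 in the authors' deposited table) that stood in maturation (1.72-fold over the cervical loop, FDR = 0.000379). Trappc8, a subunit particular to TRAPPIII, was at 34.3, 39.3 and 51.8 and rose 1.32-fold from secretory to maturation (FDR = 0.0281 in the authors' deposited table). Trappc3, at 15.9, 19.6 and 22.4, and Trappc2l, at 7.89, 8.83 and 10.5, rose at each step. Trappc2b, at 7.75, 10.5 and 12, Trappc4, at 10.1, 10.5 and 12.7, Trappc11 and Trappc9 completed the 8.

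TRAPP held exceptions to this as well. Trappc1 was lowest in secretory cells, at 18.4, 14.7 and 18.2, with a 1.25-fold drop (FDR = 0.0318 in the authors' deposited table) and a 1.24-fold return (FDR = 0.0308). Trappc5, at 10.1, 14.6 and 9.55, and Trappc6a, at 5.38, 8.04 and 5.54, rose to the secretory stage and then fell. The difference between Trappc6a and Trappc6b was not itself tested. Trappc2, Trappc10, Trappc12 and Trappc13 passed in no pair. Trappc2 and Trappc2b are close copies, so how their reads were divided is uncertain. Myeloid and endothelial marker sums were also highest in maturation, and their part in the higher TRAPP means was not tested.

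**Figure D3:**
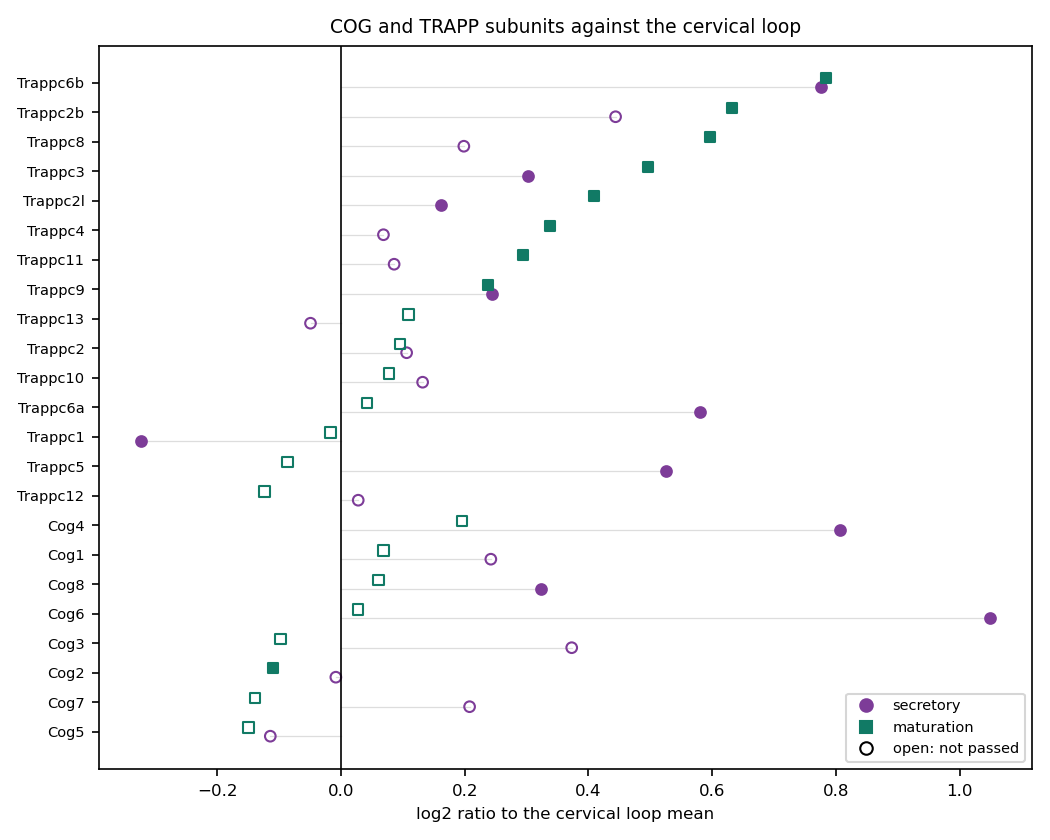
Log2 ratio to the cervical loop mean for the 8 COG and 15 TRAPP subunits; circles are secretory and squares maturation ameloblasts, filled where the FDR was under 0.05. Filled squares lie to the right of 0 for 8 TRAPP subunits, and the 1 filled COG square, Cog2, is at -0.11 and turns to 0.01 relative to the median of all genes.

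Transcripts could be followed for 33 members with more than 1 transcript, 80 transcripts in all, in the authors' isoform tables. A change in isoform make-up was called for 0 members between secretory and cervical loop cells (3 at an unadjusted p under 0.05), where 1.19% of all genes tested were called. It was called for 2 between maturation and secretory cells (1.8% of all genes) and for 2 between maturation and cervical loop cells (2.79%). In Sec23a, the main transcript Sec23a-201 went from 44.8 in secretory to 30.7 in maturation, while Sec23a-202 went from 4.20 to 1.33, from 8.57% to 4.15% of the gene (FDR = 0.0164 for make-up in the authors' deposited table). The minor form therefore dropped more, 3.16-fold against 1.46-fold.

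In Copg1, the main form Copg1-201 went from 129 to 75.3 between secretory and maturation cells, while Copg1-202 was at 5.21 and 6.74, or 3.65% and 7.68% of the gene (FDR = 0.0241 in the authors' deposited table). The share of Copg1-202, 1 of 3 transcripts of the gene, was thus higher in maturation. Trappc11-202 rose from 9.02 in the cervical loop to 15.9 in maturation, from 27.7% to 39.2% of the gene, beside 23.5 and 24.7 for Trappc11-201 (FDR = 0.0468 in the authors' deposited table). The higher Trappc11 level in maturation thus lay mainly in that form. Sec61a2-202, a form with very low means, was at 0.536 in the cervical loop and 0.204 in maturation, 3.73% and 1.55% of the gene (FDR = 0.0249 for make-up in the authors' deposited table). The call is for the gene as a whole, and which of its 3 transcripts it rests on was not tested.

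**Figure D4:**
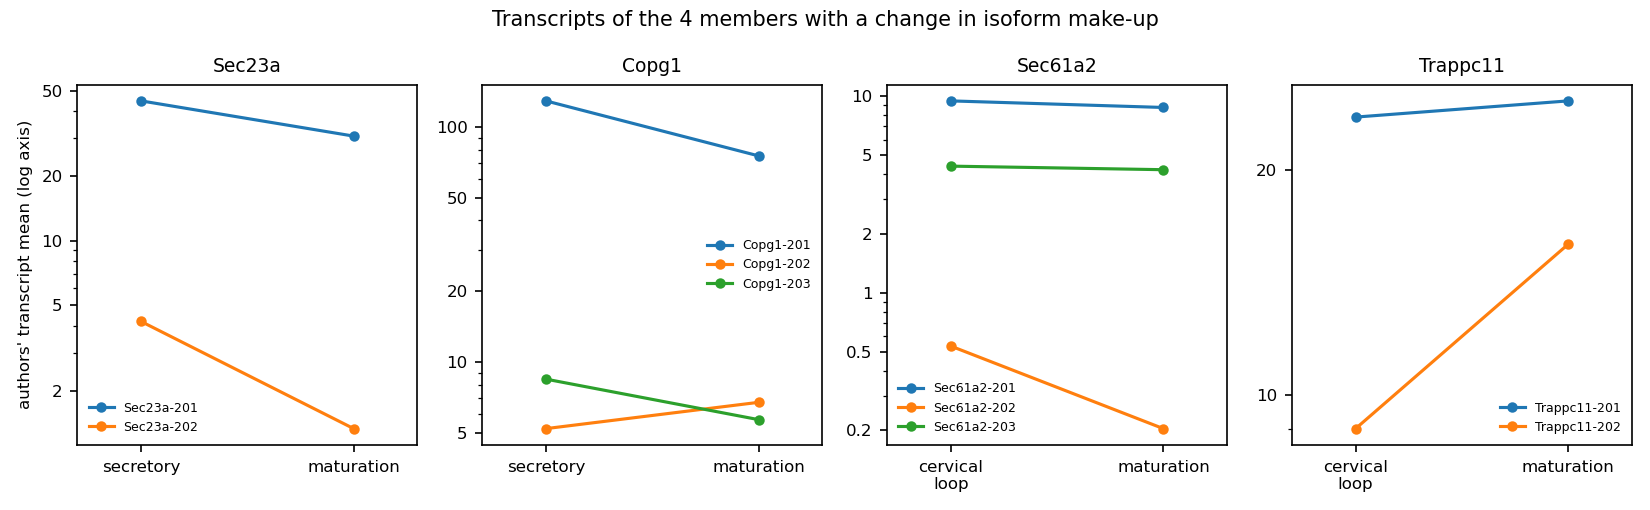
Authors' means of each transcript of Sec23a, Copg1, Sec61a2 and Trappc11 in the pair of stages where the isoform make-up was called, on log axes with a separate scale in each panel. Sec23a-202 falls more steeply than Sec23a-201, and Trappc11-202 rises from 9.02 to 15.9 while Trappc11-201 stays near 24.

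Calls on single transcripts were fewer than calls on genes. Of 22 members with transcripts that were called between secretory and cervical loop cells, the most abundant transcript passed in the same direction for 7. For maturation against secretory cells this was 11 of 25, and for maturation against the cervical loop 5 of 21. The same share over all genes was not computed, so whether this is particular to the members is unknown. Ssr1, Srp68, Cope and Arfgap1 were among those called as genes and not by their main transcript in the secretory stage. A transcript's mean for the same stage differed between isoform tables by up to 1.93-fold (Ssr2-202), so transcripts were compared only within a table.

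Genes of the same route that the symbol rule leaves out were taken from a list of 60 measured, which includes 8 transcription factors known to act on it. Of the 60, 31 were higher (51.7%, against 16.5% of all genes) and 7 lower (11.7%, against 25.2%) in secretory than in cervical loop cells. In maturation against secretory cells 25 were lower (41.7%, against 21.1%) and 8 higher (13.3%, against 21.8%). Sec22b, the SNARE that ER-derived vesicles use to fuse, had means of 49.3, 118 and 41.3, 2.40-fold higher in secretory than in cervical loop cells (FDR = 0.000511 in the authors' deposited table). Stt3b, a catalytic subunit of the oligosaccharyl transferase that adds N-glycans, was at 72.6, 145 and 95.8, and Ddost, another subunit, at 58.9, 112 and 53.3. Arfgef2, which activates Arf at the late Golgi, was at 33.2, 63.5 and 62, higher in both later stages. Bcap29 and Bcap31, ER membrane proteins that help export cargo, were higher in maturation than in secretory cells, Bcap29 from 6.45 to 16.1 and Bcap31 from 47.7 to 65.4. Bnip1, Cnih4 and Golm1 were lower in secretory than in cervical loop cells, and Use1 was lower in maturation than in the cervical loop.

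Of those 8 factors, all of the bZIP class, Xbp1, Creb3 and Creb3l2 were higher in secretory than in cervical loop cells. Creb3l2, known to raise Sec23a in cartilage, had means of 40.4, 90.1 and 21.4, a 2.23-fold rise (FDR = 0.00206 in the authors' deposited table) and a 4.20-fold drop (FDR = 0.0003). Sec23a itself, at 49.8, 50.2 and 31.8, was not called from cervical loop to secretory cells and was lower in maturation than in secretory cells. Xbp1, which builds up the secretory apparatus in plasma cells, was at 28.1, 78.8 and 31.9, a 2.80-fold rise (FDR = 0.0013 in the authors' deposited table) and a 2.47-fold drop (FDR = 0.00147). Atf6 was highest in maturation, at 37.9, 40.9 and 53.7, 1.31-fold above secretory cells (FDR = 0.00198 in the authors' deposited table). Creb3l1 was at 31.5, 19.5 and 28.0 and passed in no pair. Atf6b and Creb3l4 were lower in maturation than in secretory cells (FDR = 0.0212 and 0.0106 in the authors' deposited table). Atf4 was higher in maturation than in the cervical loop (FDR = 0.00699 in the authors' deposited table). Of the 8, only Creb3l2 and Atf6 met the rule for naming, and the others were named after their values were seen. Whether any of these factors acts on the members was not tested.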

How the data were processed

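RNA of the 3 enamel organ populations was sequenced in single-end reads of 75 bases, 25000000 per library, per the labels' protocols, and 1 cervical loop library was left out for an RNA integrity number under 7. The submitters' processing notes list STAR 2.5.3a, Partek and rn6, while annotation, normalisation and model were not given in the sources used here. The authors deposited, per gene and stage, a least-squares mean per the file headers, a score whose unit is not stated, and per pair of stages a p-value, an FDR and a ratio of means. The depth behind each mean is unknown and no counting interval is given. The deposited totals were 3.99, 3.99 and 5.01 times the stage means, near 13 libraries, where the labels would give 14, a difference not settled. The labels do not name which libraries came from which rat in the files used here. Whether the authors' model had a term for the rat, and so which spread the p-values measure, is unknown.

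Members were found by symbol and grouped into 5 roles. Each of the 3 samples is 1 mean per stage, so no test was run: calls rest on the authors' p-values, adjusted again over all 16516 genes, which gave their FDR within 4.9e-16. Directions and log2 ratios were computed from the deposited means. No fold was given against a mean at or under 0.1. In each role and pair of stages up to 3 members higher and 3 lower with the largest ratio were named, with paralogues, and the remaining members when their role was described. Of the list of 60 further genes, up to 3 per direction and pair with the smallest p-value were named, and the 8 transcription factors in it were all named. Promoters were searched on both strands, and a gene with several promoter entries counted once if any held the motif. Members, roles and lists were chosen with earlier results of these data known. Alternatives were other thresholds, a minimum fold of 1.5, a filter on means under 1, Holm adjustment, centring on all genes, a pseudocount of 1 and, for the medians, the means of the 3 stage lists. Python 3.11.15, pandas 2.3.3, numpy 2.4.6, scipy 1.17.1 and matplotlib 3.10.9 were used, and the adjustment was tested on simulated data.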

Additional observations from a re-analysis of the deposited data

How the results depend on the processing

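Of 51 alternative values for the counts and medians, 29 left a count within 1.5 times its value or a median the same when rounded as printed, 21 moved beyond that limit, which for medians is narrow, and 1 reversed. Asking also for a fold of 1.5 or more, 23 members were higher and 1 lower in secretory than in cervical loop cells, 37 lower and 0 higher in maturation than in secretory cells, and 6 higher and 9 lower in maturation than in the cervical loop. The share of all genes was not computed at this setting or at the stricter ones below. These counts therefore do not show whether members still differ from other genes there. At an FDR of 0.01, 1 member was lower in secretory than in cervical loop cells, 3 were higher in maturation than in secretory cells, and 12 were higher and 16 lower in maturation than in the cervical loop. No isoform call remained at 0.01, with 0 members in both comparisons of maturation. Holm adjustment left 2 members, Copa and Sec31a, lower in maturation than in secretory cells, and 0 in every other direction and pair. Centred on all genes, the median log2 ratio of members was 0.46 for secretory against cervical loop cells, and it reversed to 0.093 for maturation against the cervical loop. With a pseudocount of 1 the median was 0.31 in the first of these and -0.33 in maturation against secretory cells. Of 66 named folds, 1 moved over 1.5 times with the pseudocount, that of Golga7b. No replicate could be left out, since each stage is 1 mean. No paired analysis was possible because the files used hold no value per rat.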
